A study of Arabidopsis thaliana with 46 samples.

Results

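Shoots of the insertion line SALK_070989 were compared with shoots of wild-type Col-0 in the light controls, the normal day cycle arm of an experiment on extended darkness in Arabidopsis. SALK_070989 carries a T-DNA insertion in WRKY1. The comparison rests on 6 of the 46 arrays of the series, 3 of SALK_070989 and 3 of Col-0. It covers every probe set, other than array controls, whose mean exceeded 4 on the log2 scale in SALK_070989, in Col-0 or in both. These are 12485 of 22746 probe sets, and each was tested. A mean of 4.001 lay just inside the limit and one of 3.999 just outside it. The limit keeps some probe sets that reached it in a single group, 167 in SALK_070989 alone and 202 in Col-0 alone, and 77 of these 369 were called different.

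Seedlings of both genotypes were grown upright on plates of full medium with 0.1% sucrose for 14 days, in a chamber kept at 22 °C with 16 h of light (50 µmol m-2 s-1) and 8 h of dark, and were harvested 2 h into the light. The other groups used here are 14 days old too. In the steady experiment SALK_070989, the insertion lines SALK_016954 and SALK_136009, and Col-0 were grown by the same protocol as the light controls, on separate arrays. In the dark arm of the light experiment, plates of SALK_070989 and Col-0 were covered in foil from the start of the day before harvest. In the nitrogen experiment, seedlings of SALK_070989 and Col-0 were raised on KNO3 as the nitrogen source. They then spent 2 h on medium with KCl in place of nitrogen (N-absent) or with NH4NO3 and KNO3 (N-rich). Each of these groups has 3 arrays. A further group, Col-0 dark N-absent, has 2. The labels do not tell whether replicates came from different cultures, so the p-values cover array-to-array spread, which may be technical. Each line is a single insertion line, and neither zygosity nor where the probes lie with respect to the insertion is given in the sources used here.

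WRKY proteins are plant transcription factors that bind DNA through a zinc-finger domain and recognise the W-box in promoters. The family is large and is best known from defence, senescence and stress responses. The study's title ties WRKY1 to light and nitrogen signalling. In leaves, light and sugar supply set the level of many transcripts through photoreceptors, the clock and the SnRK1 kinase, an energy sensor that is active when carbon runs short.

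The 6 arrays were alike in overall level. Their medians lay at 4.53 to 4.57 in SALK_070989 and 4.55 to 4.56 in Col-0. The 3′ minus 5′ signal of the GAPDH control, a measure of RNA quality, was 1.93 to 2.07 in SALK_070989 and 1.79 to 2.18 in Col-0. Replicates correlated at 0.990 to 0.994 over all tested probe sets. Among the leaf photosynthesis genes, RCA, which activates Rubisco, stood at 14.00 to 14.04 in SALK_070989 and 14.01 to 14.04 in Col-0. The root hair expansins EXPA7 and EXPA18 and the meristem gene CLV3 were near the lowest value of the table in both genotypes. The root-type glucosidase gene PYK10 lay at 11.69 to 11.89 in SALK_070989 and 11.62 to 11.81 in Col-0.

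WRKY1 transcript was near the lowest value of the table, 2.23, in the insertion line. WRKY1 (AT2G04880, listed as ZAP1 in the array annotation) had log2 values of 2.23, 2.29 and 2.23 in the SALK_070989 arrays, against 7.51, 7.73 and 7.68 in the Col-0 arrays. The difference was -5.39 ± 0.19 (limma, adjusted p = 2.4e-21), a lower bound because the SALK_070989 arrays were near the lowest value. Values after ± are standard errors of log2 differences, SALK_070989 minus Col-0, and adjusted p-values are limma's, Benjamini-Hochberg over 14288 probe sets. An exact permutation test of WRKY1, two-sided over 3 against 3 arrays, gave p = 0.1, the smallest it allows.

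More transcripts were higher than lower in SALK_070989 light controls, and most differences were small. At an adjusted p under 0.05, 781 of the 12485 probe sets differed (6.26%), 529 higher (4.24%) and 252 lower (2.02%). The median difference was 0.73 among those called higher and -0.66 among those called lower, against -0.02 over all. Differences reached at least 2-fold for 177 of them, 129 higher and 48 lower. The smallest called differences were 0.29 and -0.31. In 759 of the 781 no SALK_070989 array overlapped a Col-0 array, as in 3966 of all 12485 (31.8%). One gene name is given for 391 of the called probe sets, and the other 390 are unnamed here.

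In a fit to these 6 arrays alone 594 probe sets passed, 334 higher and 260 lower, and 363 of them were among the 781. The count depended on single arrays. Leaving out Col-0 light replicate 1 left 427 calls, and leaving out SALK_070989 light replicate 1 left 512. Col-0 replicate 1 was the lowest of the Col-0 arrays for 278 of the 529 higher probe sets and the highest for 141 of the 252 lower ones. SALK_070989 replicate 3 was the highest SALK_070989 array for 234 of the 529. Since whole shoots were sampled, fewer cells of a type and less RNA per cell cannot be told apart in any of these differences.

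**Figure D1:**
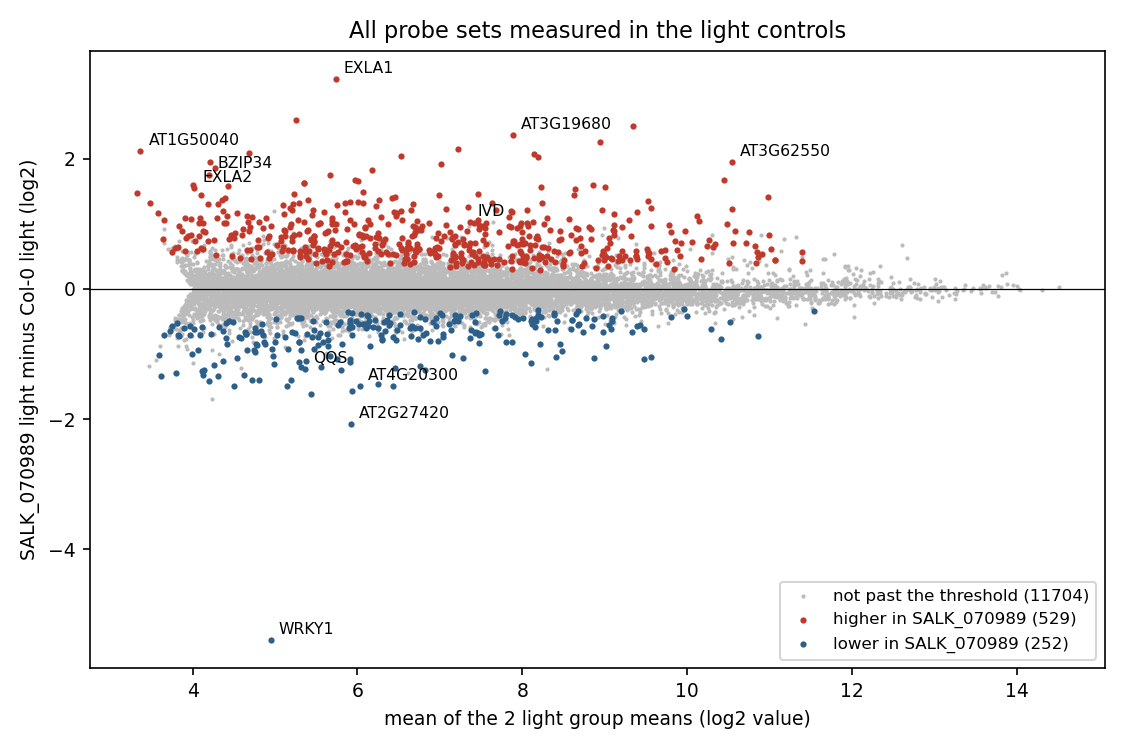
Difference SALK_070989 light minus Col-0 light (log2, vertical axis) against the mean of both group means (log2 value, horizontal axis) for the 12485 probe sets. Red points are the 529 called higher in SALK_070989, blue points the 252 called lower, grey points the rest. WRKY1 lies far below all others, and the higher calls reach 3.23 for EXLA1.

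The largest called increase was that of EXLA1. EXLA1, which encodes an expansin-like protein of the cell wall, had 7.18, 6.36 and 8.51 in SALK_070989 against 3.86, 4.04 and 4.46 in Col-0, a difference of 3.23 ± 0.45 (adjusted p = 9.6e-06). The SALK_070989 arrays spread over more than 2 log2 units but all lay above the Col-0 arrays. EXLA2, its close relative, had 4.4, 4.58 and 5.38 in SALK_070989 against 3.21, 3.04 and 3.48 in Col-0 (1.55 ± 0.23, adjusted p = 3.4e-05). EXO, a cell wall protein gene induced by brassinosteroid, had 9.69, 8.98 and 10.69 in SALK_070989 against 8.29, 7.89 and 8.49 in Col-0 (1.57 ± 0.31, adjusted p = 0.0011). For EXO the groups were separate but close, and in a fit to these 6 arrays alone its adjusted p was 0.11. THE1, a receptor kinase gene that monitors wall integrity and was picked out after its values were seen, had 8.19, 7.95 and 8.73 in SALK_070989 against 7.07, 7.16 and 7.00 in Col-0 (1.21 ± 0.17). In all of these the third SALK_070989 array was the highest.

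AT3G19680, of unknown function, had 8.93, 8.57 and 9.71 in SALK_070989 against 6.39, 6.17 and 7.54 in Col-0 (2.37 ± 0.30, adjusted p = 3.2e-06). AT1G50040 had 4.44, 3.45 and 5.39 in SALK_070989 against 2.33, 2.24 and 2.36 in Col-0. As Col-0 lay near the lowest value, its difference of 2.11 ± 0.28 is a lower bound. AT1G10020, also of unknown function and picked out after its values were seen, had 7.24, 7.18 and 7.56 in SALK_070989 against 6.0, 5.88 and 6.20 in Col-0 (1.31 ± 0.15). SALK_070989 replicate 3 was again the highest array for each.

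The next values belong to others of the 15 named genes with the largest increases, ranked over called probe sets with 1 gene name and no overlap between groups. AT3G62550, of the universal stress protein family, had 11.46, 11.74 and 11.34 in SALK_070989 against 9.08, 9.58 and 10.03 in Col-0 (1.95 ± 0.29, adjusted p = 3.4e-05). AT2G30930, of unknown function, had 8.87, 8.99 and 9.69 in SALK_070989 against 6.92, 7.27 and 7.12 in Col-0 (2.08 ± 0.23). AT4G28703, of the cupin family, had 5.94, 6.11 and 5.15 in SALK_070989 against 3.34, 3.70 and 3.88 in Col-0 (2.09 ± 0.26). In each of the 3 the nearest arrays of the groups lay more than 1 log2 unit apart.

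BZIP34, a basic leucine zipper transcription factor gene, had 5.02, 4.95 and 5.27 in SALK_070989 against 3.90, 2.54 and 3.53 in Col-0 (1.76 ± 0.26, adjusted p = 2.3e-05). The SALK_070989 arrays were tight and the Col-0 arrays spread widely. Its relative BZIP61, picked out after its values were seen, had 8.37, 8.23 and 8.83 in SALK_070989 against 7.10, 7.33 and 7.42 in Col-0 (1.19 ± 0.21). AT1G02660, a plastid lipase gene, had 6.35, 6.08 and 6.08 in SALK_070989 against 4.3, 4.41 and 4.91 in Col-0 (1.63 ± 0.25). The remaining 6 of the 15, among them the small auxin-up RNA gene AT3G53250 (1.58 ± 0.32) and the glycine-rich protein gene AT5G28630 (1.86 ± 0.31), rose by 1.58 to 1.94.

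Beside WRKY1, the deepest called fall was that of AT2G27420, a papain-type cysteine protease gene. It had 5.24, 4.65 and 4.75 in SALK_070989 against 7.44, 6.74 and 6.69 in Col-0 (-2.07 ± 0.30, adjusted p = 2.2e-05). AT2G15020, of unknown function, had 5.69, 5.74 and 5.63 in SALK_070989 against 7.63, 7.08 and 6.83 in Col-0 (-1.49 ± 0.25). Both probe sets of AT5G54130, which encodes a calcium-binding protein of the nuclease family, fell, by 1.57 ± 0.26 and by 1.33 ± 0.24. AT4G20300, of unknown function, had 5.17, 5.39 and 5.3 in SALK_070989 against 6.95, 6.70 and 6.67 in Col-0, and its difference of -1.49 ± 0.14 had the smallest adjusted p after WRKY1 among the named genes (7.8e-09).

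Other genes were among the 15 deepest falls, ranked in the same way. TRY, which represses trichome fate, had 3.62, 2.97 and 3.94 in SALK_070989 against 4.96, 4.72 and 4.60 in Col-0 (-1.25 ± 0.27, adjusted p = 0.0024). QQS, an orphan gene that affects leaf starch, had 4.80, 4.62 and 4.80 in SALK_070989 against 6.06, 5.65 and 6.22 in Col-0 (-1.23 ± 0.24). The polygalacturonase gene AT1G48100 fell by 1.40 ± 0.28 and TBL26, of a family that acetylates wall polymers, by 1.2 ± 0.25. AT3G44450, which encodes an inhibitor of cryptochrome signalling, had 4.54, 4.71 and 4.89 in SALK_070989 against 6.12, 5.97 and 5.64 in Col-0 (-1.2 ± 0.23, adjusted p = 0.00089). AT3G24460 was called at -1.40 ± 0.42 (adjusted p = 0.042), but the call was lost under 8 alternatives. It was lost without Col-0 light replicate 1 (-1.03, adjusted p = 0.3) or 3 (adjusted p = 0.087) and with any SALK_070989 array left out. No filter (0.089), a replicate block (0.09) and a fit to these 6 arrays alone (0.1) lost it too.

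**Figure D2:**
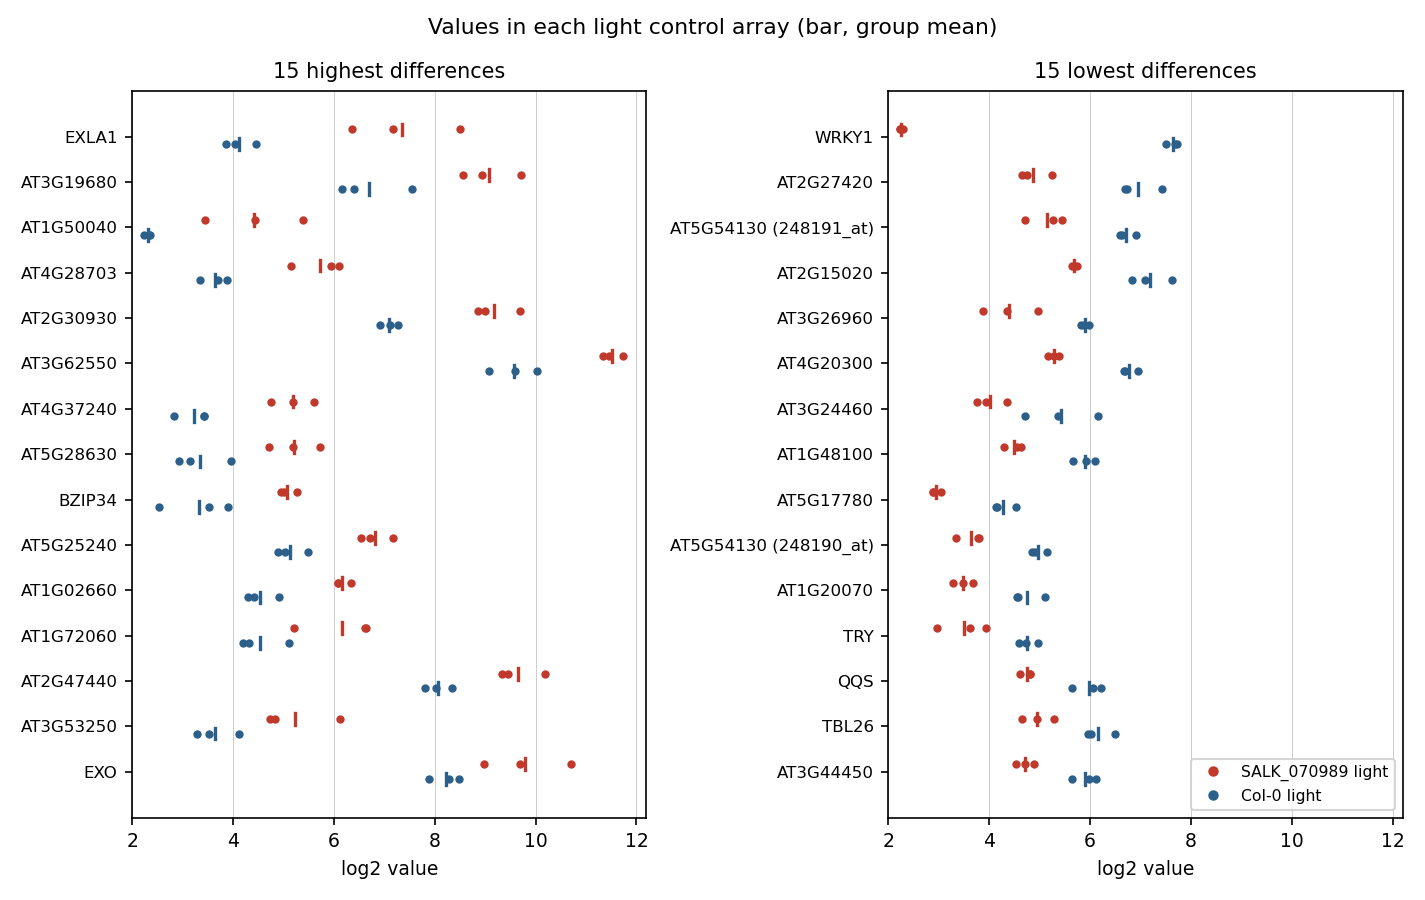
Log2 values of each light control array for the genes with the 15 highest (left) and 15 lowest (right) differences, SALK_070989 above Col-0 in each row. Points are arrays and bars are group means. The rows were chosen without overlap between groups, and Col-0 lies near the lowest value of 2.23 for AT1G50040, as SALK_070989 does for WRKY1.

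Pathway lists were thinly measured, because the annotation gives 1 gene for 53.1% of the probe sets. Among light-harvesting and carbon fixation genes 0 of 6 passed the test (median difference -0.03, against -0.02 over all probe sets). Of 4 measured genes of chlorophyll metabolism, 1 rose. This was PORB, which reduces protochlorophyllide in the light, with 10.36, 10.24 and 10.67 in SALK_070989 against 9.34, 9.77 and 9.99 in Col-0 (0.73 ± 0.18, adjusted p = 0.01). Without Col-0 light replicate 1 its adjusted p was 0.14, and without SALK_070989 light replicate 3 it was 0.086.

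Of 3 measured members of the dark and carbon starvation list 2 rose (median 0.54). AKINBETA1, which encodes a regulatory subunit of SnRK1, had 9.17, 9.09 and 8.84 in SALK_070989 against 8.13, 8.33 and 8.36 in Col-0 (0.76 ± 0.17, adjusted p = 0.0036). BZIP53, a transcription factor gene that acts with SnRK1 signalling, rose by 0.54 ± 0.12 (adjusted p = 0.0039; 0.066 without SALK_070989 light replicate 3). PPDK, of pyruvate metabolism, differed by 0.17 and was not called.

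In the breakdown of branched-chain amino acids and lysine, 2 of 5 measured genes rose (median 0.34). IVD, an enzyme gene of leucine breakdown, had 8.08, 8.10 and 7.43 in SALK_070989 against 6.81, 7.00 and 6.74 in Col-0 (1.02 ± 0.15, adjusted p = 1.9e-05). MCCA, of the next step of leucine breakdown, had 8.59, 8.52 and 7.85 in SALK_070989 against 7.45, 7.87 and 7.58 in Col-0 (0.69 ± 0.17, adjusted p = 0.011). SALK_070989 replicate 3 overlapped Col-0, and its adjusted p was 0.093 without Col-0 light replicate 1, 0.1 without SALK_070989 replicate 1 and 0.084 without SALK_070989 replicate 2. The others did not pass, with MCCB, the partner subunit, at 0.34 (adjusted p = 0.074), ETFQO at 0.29 (adjusted p = 0.42) and D2HGDH at -0.11 (adjusted p = 0.81). Among 10 autophagy genes 0 passed (median 0.13), with ATG8E at 0.53 (adjusted p = 0.091).

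Sugar and starch genes showed single changes. Of 8 measured SWEET-type sugar transporter genes 1 fell (median -0.12). SAG29, a sugar exporter gene also known as a senescence marker, had 4.55, 5.39 and 6.63 in SALK_070989 against 7.30, 6.48 and 7.18 in Col-0 (-1.47 ± 0.30, adjusted p = 0.0015). Its highest SALK_070989 array overlapped the lowest Col-0 array, and its adjusted p was 0.06 in a fit to the 4 groups of the light experiment and 0.18 in a fit to these 6 arrays alone. Its difference was -0.98 without SALK_070989 light replicate 1 and -2.02 without replicate 3. QQS was the 1 of 3 measured starch genes that fell (median -0.58).

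Growth and hormone lists held few measured members. Of 9 expansin genes 2 rose, EXLA1 and EXLA2, and the median of the 9 was 0.13. Of 4 measured XTH genes, which remodel xyloglucan, XTH27 rose by 0.66 ± 0.13 (adjusted p = 0.00098; list median 0.59). Of 5 auxin genes 2 rose (median 0.57). GH3.5, whose enzyme conjugates auxin to amino acids, had 8.02, 8.57 and 8.27 in SALK_070989 against 6.83, 7.00 and 7.07 in Col-0 (1.32 ± 0.22, adjusted p = 0.00015). GH3.17, an enzyme gene of the same family, rose by 0.79 ± 0.18 (adjusted p = 0.0053; 0.052 without Col-0 light replicate 1). ARR16, a cytokinin response regulator gene and the 1 measured of its list, was called at -0.74 ± 0.21 (adjusted p = 0.031), a call lost with any 1 of the 6 arrays left out (adjusted p of 0.064 to 0.11).

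Among regulators of light responses and of defence, HYH, a transcription factor gene that acts beside HY5, had 6.40, 5.86 and 5.94 in SALK_070989 against 7.07, 6.87 and 6.47 in Col-0 (-0.74 ± 0.19, adjusted p = 0.015). It was the 1 measured member of the light signalling list, and its call was lost without Col-0 light replicate 1 or 2 and without SALK_070989 light replicate 2 or 3 (adjusted p of 0.064 to 0.14). Of 4 measured WRKY genes, WRKY1 fell and WRKY22, known from immune signalling, rose, with 4.62, 4.51 and 4.08 in SALK_070989 against 3.35, 3.63 and 3.72 in Col-0 (0.83 ± 0.17, adjusted p = 0.0014). WRKY6 and WRKY20 differed by -0.16 and -0.17. Of 5 glucosinolate genes UGT74B1, of glucosinolate synthesis, fell by 0.64 ± 0.14 (adjusted p = 0.0036; list median -0.08).

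Of 2 measured iron genes BHLH101, a regulator of iron uptake, rose by 0.78 ± 0.21 (adjusted p = 0.018; list median 0.23), and its adjusted p was 0.09 to 0.14 without Col-0 light replicate 2, SALK_070989 light replicate 2 or SALK_070989 light replicate 3. Of 4 cold and dehydration genes 0 passed (median -0.21). COR15A had 6.70, 7.47 and 8.88 in SALK_070989 against 8.58, 8.80 and 9.34 in Col-0, a difference of -1.22 with an adjusted p of 0.1, and -1.82 with an adjusted p of 0.0094 without SALK_070989 light replicate 3. The clock gene GI (0.10), the defence gene ECS1 (-0.22), the anthocyanin gene DFR (-0.76) and the glutathione transferase gene GSTU20 (0.11), each the single measured member of its list, were not called.

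The steady experiment repeated the same genotypes under the same growth protocol on other arrays, with its own Col-0, and 1698 of the 12485 (13.6%) differed there. Of the 529 probe sets higher in the light controls, 488 were above 0 in steady SALK_070989 against Col-0, as were 40.8% of all 12485. Of the 529, 315 (59.5%) were called higher there, where 6.18% of all 12485 were. They made up 40.9% of the 771 called higher in steady. Of the 252 lower ones, 246 were below 0 in steady, as were 59.1% of all. Of the 252, 178 (70.6%) were called lower, against a background of 7.42%, or 19.2% of the 927 called lower in steady. The steady split of 771 higher and 927 lower became 696 and 448 without SALK_070989 steady replicate 3, and 884 and 766 after a further quantile normalization. In steady the opposite call was made for 4 of the 529 and 1 of the 252, all unnamed here. Median differences in steady were 0.58 for the 529 and -0.67 for the 252. The 493 calls shared in direction became 273 without Col-0 light replicate 1 and 443 without SALK_070989 steady replicate 3.

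**Figure D3:**
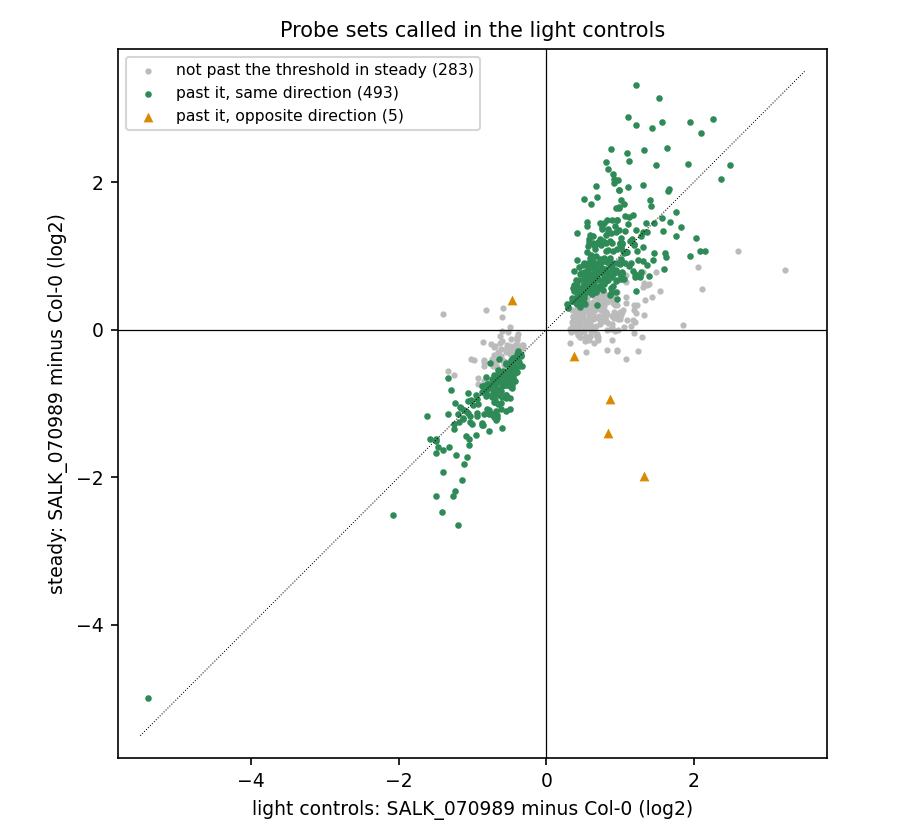
Difference SALK_070989 minus Col-0 (log2) in the light controls (horizontal axis) and in steady (vertical axis) for the 781 probe sets called in the light controls. Green points were called in the same direction in steady (493), orange triangles in the opposite direction (5), grey points were not called in steady (283). The dotted line marks equal differences, and WRKY1 is the point at the lower left.

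Among the 15 named genes with the largest increases, 12 were called higher in steady as well. AT3G62550 differed by 2.81, AT4G28703 by 2.67, AT1G02660 by 2.47 and AT3G19680 by 2.04. The 3 exceptions were EXLA1 (0.81, adjusted p = 0.27), AT1G50040 (0.55, adjusted p = 0.22) and AT5G28630 (0.07, adjusted p = 0.95). In steady EXLA1 had 3.70, 5.95 and 5.01 in SALK_070989 against 4.55, 4.2 and 3.5 in Col-0, so that the groups overlapped. EXLA2 was not called in steady either (0.52, adjusted p = 0.15). Among the 15 deepest falls, WRKY1 and both probe sets of AT5G54130 included, 13 were called lower in steady, with AT3G44450 at -2.65 and AT2G27420 at -2.51. TRY (-0.62, adjusted p = 0.14) and AT3G24460 (0.22, adjusted p = 0.84) were not.

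Whether the genotype difference itself changed between the light controls and steady was tested as a difference of differences. Of the 12485 probe sets 61 passed (0.489%), 18 positive (0.144%) and 43 negative (0.344%), and for 55 of the 61 the genotype difference was larger in steady. At an unadjusted p under 0.05 there were 976. The 61 became 40 without Col-0 light replicate 2, 24 without Col-0 light replicate 3 and 27 without Col-0 steady replicate 1. Without SALK_070989 light replicate 3 there were 39, 20 positive and 19 negative. Without SALK_070989 steady replicate 2 there were 61, 28 positive and 33 negative, so the excess of negative differences depended on single arrays. In a fit to only these 12 arrays 1 probe set passed.

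AT1G59710, of unknown function, was among the 4 probe sets of the 61 that were called in the light controls alone. It had 5.6, 5.46 and 5.93 in SALK_070989 against 4.65, 4.79 and 4.68 in Col-0 in the light controls, and 4.84, 4.98 and 4.91 in SALK_070989 against 5.14, 5.12 and 5.28 in Col-0 in steady. SALK_070989 was thus the higher genotype in every light control array and the lower one in every steady array. Its genotype differences were 0.96 ± 0.12 in the light controls and -0.27 ± 0.12 in steady (difference 1.23 ± 0.16, adjusted p = 0.00011; 0.085 in a fit to the 12 arrays alone). EXLA1, at 2.42 ± 0.63 (adjusted p = 0.073), and AT1G50040, at 1.56 ± 0.40 (adjusted p = 0.065), did not pass this test.

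Of the 61, 39 were called in steady alone. AT2G29300, of the tropinone reductase-like family, had 7.91, 7.32 and 7.30 in SALK_070989 against 7.78, 7.39 and 7.73 in Col-0 in the light controls, and 7.41, 8.12 and 8.21 in SALK_070989 against 6.12, 5.58 and 6.45 in Col-0 in steady. Its genotype difference was -0.13 in the light controls and 1.87 in steady (difference -1.99 ± 0.29, adjusted p = 0.00031). Between the Col-0 groups it was 1.59 higher in the light controls than in steady (adjusted p = 5.2e-06), and between the SALK_070989 groups the difference was -0.41 (adjusted p = 0.31). AT2G20670 had genotype differences of 0.37 in the light controls and 1.88 in steady, and AT3G15450 of 0.77 and 2.24. In Col-0 they were 1.26 and 1.65 higher in the light controls than in steady.

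The Col-0 arrays of both experiments differed although the growth protocol was the same. Of the 12485 probe sets 606 (4.85%) differed between Col-0 light controls and Col-0 steady, 372 higher (2.98%) and 234 lower (1.87%). Between SALK_070989 light controls and SALK_070989 steady 421 (3.37%) differed, 328 higher (2.63%) and 93 lower (0.745%), or 223 and 143 after a further quantile normalization. The 606 became 332 without Col-0 light replicate 2, 273 without Col-0 light replicate 3, 357 without Col-0 steady replicate 1 and 391 without Col-0 steady replicate 2. The 421 became 231 without SALK_070989 light replicate 1 and 235 without SALK_070989 light replicate 3. SALK_070989 steady replicate 3 had a median of 4.35 and a GAPDH 3′ minus 5′ signal of 3.02, both outside the range of the light controls. Without that array 281 probe sets differed between SALK_070989 light controls and steady, 181 higher and 100 lower, and the genotype difference changed between light controls and steady for 50.

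The other insertion lines were grown in steady only. Both carried less WRKY1 transcript, with 2.23, 2.23 and 2.31 in SALK_016954 and 4.45, 3.93 and 4.27 in SALK_136009, against 7.45, 7.77 and 7.47 in Col-0 steady. Of the 529 probe sets higher in SALK_070989 light controls, 121 (22.9%) were called higher in SALK_016954, where 2.65% of all were, and 237 (44.8%) in SALK_136009, where 5.57% were. Of the 252 lower ones, 26 (10.3%) were called lower in SALK_016954, against 0.897% of all, and 87 (34.5%) in SALK_136009, against 3.69%. The medians were 0.29 and -0.23 in SALK_016954 and 0.42 and -0.34 in SALK_136009. All 3 lines share the Col-0 steady arrays, which are not those of the light controls.

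These counts moved with single arrays too. For SALK_016954 the 147 shared calls became 85 without Col-0 light replicate 1, 95 without SALK_070989 light replicate 1 and 70 without SALK_016954 steady replicate 3, and 4 in fits to only the groups compared. For SALK_136009 the 324 became 179 without Col-0 light replicate 1 and 211 without SALK_070989 light replicate 1, and 86 in fits to only the groups compared.

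Some genes of the light comparison were called in all lines and others were not. AT4G28703 was higher than Col-0 by 1.51 in SALK_016954 and 1.94 in SALK_136009, AT1G02660 by 1.53 and 1.91, AT3G19680 by 1.31 and 1.32, GH3.5 by 1.06 and 1.17 and AKINBETA1 by 0.90 and 1.43, all with an adjusted p under 0.05. AT2G27420 fell by 1.84 in SALK_136009 and differed by -0.62 in SALK_016954 (adjusted p = 0.32). AT2G30930 differed by -0.09 in SALK_016954 and 0.37 in SALK_136009, neither called. Set against SALK_016954 directly, AT2G30930 was 1.16 ± 0.23 higher in SALK_070989 steady (adjusted p = 0.004), while against SALK_136009 the difference was 0.70 ± 0.23 (adjusted p = 0.13).

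AT4G20300 set SALK_070989 apart from the other lines. It differed from Col-0 by -0.09 in SALK_016954 and -0.14 in SALK_136009, against -1.67 ± 0.14 in SALK_070989 steady. The arrays read 4.99, 5.49 and 5.3 in SALK_070989 against 6.99, 6.75 and 6.79 in SALK_016954 and 6.52, 6.96 and 6.88 in SALK_136009. SALK_070989 was lower by 1.58 ± 0.14 than SALK_016954 (adjusted p = 3.1e-09) and by 1.53 ± 0.14 than SALK_136009 (adjusted p = 8.1e-09). The gene was below Col-0 in SALK_070989 in every condition described here, at -1.23 in the dark, -1.11 on N-absent and -0.54 on N-rich medium, each called. UGT74B1 and AT1G20070 were also lower in SALK_070989 steady than in both other lines, by 0.59 and 0.56 and by 1.12 and 0.88.

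In the dark arm the genotype differences of most probe sets called in the light controls were small. The share called in the same direction was nevertheless above that of all probe sets. Of the 529 higher probe sets 28 (5.29%) were called higher in the dark, against 1.23% of all, and of the 252 lower ones 13 (5.16%) were called lower, against 1.03%. The medians were 0.08 and -0.05. EXLA1 had 10.02, 9.76 and 9.80 in SALK_070989 against 8.93, 9.07 and 9.29 in Col-0 (0.76, adjusted p = 0.49). It was high in both genotypes, and the groups did not overlap. IVD had 12.04, 12.15 and 11.72 in SALK_070989 against 12.16, 12.05 and 12.28 in Col-0. AT2G27420 was near the lowest value in both genotypes in the dark. Besides WRKY1, AT4G20300 and QQS (-1.28, adjusted p = 0.0013), AT4G37240 was called among the 30 named extremes, at 0.88 (adjusted p = 0.03).

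The genotype difference itself changed between the light controls and the dark for 282 of the 12485 probe sets (2.26%), 179 positive (1.43%) and 103 negative (0.825%). The count became 130 without Col-0 light replicate 1, 184 without Col-0 light replicate 2 and 156 without SALK_070989 dark replicate 3. AT3G62550 was higher than Col-0 by 1.95 in the light controls and differed by -0.39 in the dark (difference 2.33, adjusted p = 0.0014). BZIP34 by 2.00 (adjusted p = 0.0017) and IVD by 1.22 (adjusted p = 0.001). AT4G20300 differed by -0.25 between the arms (adjusted p = 0.63).

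**Figure D4:**
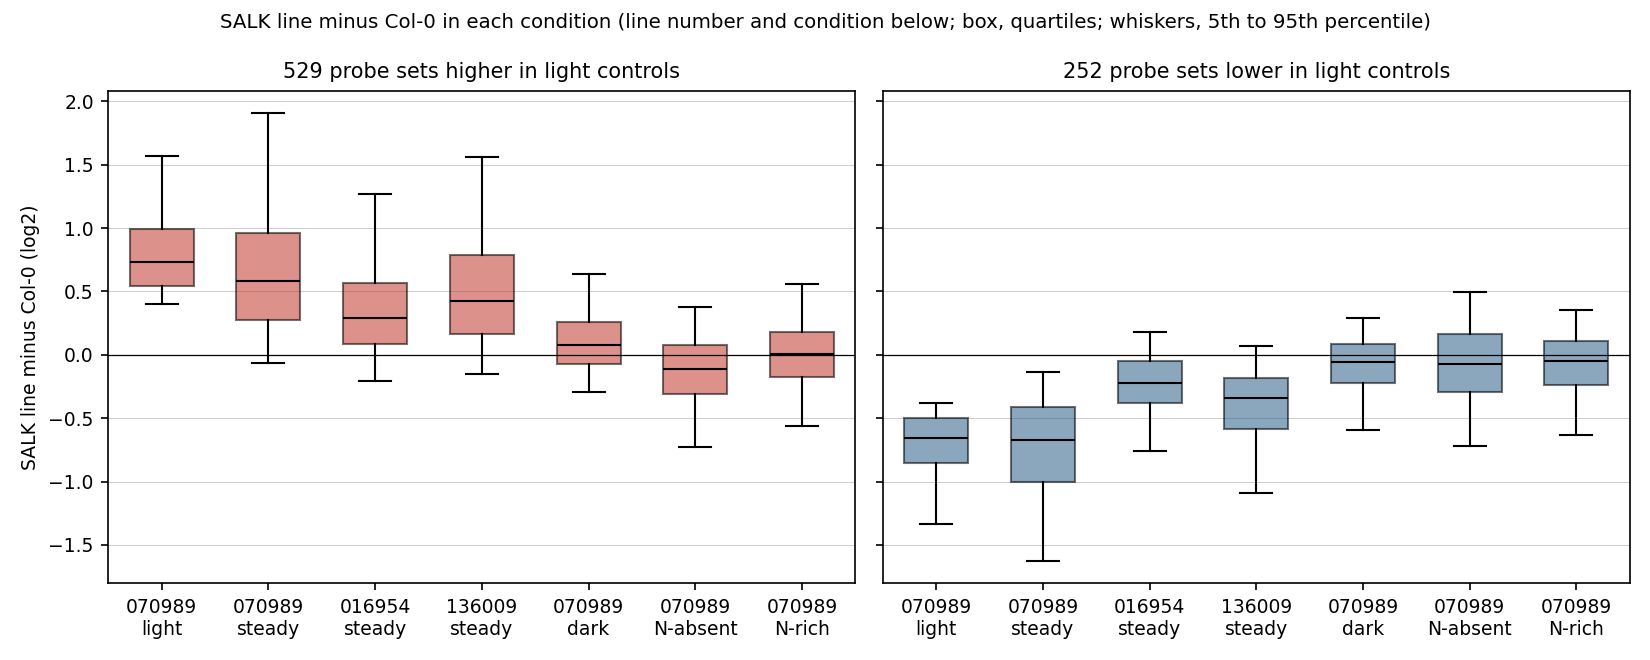
SALK line minus Col-0 (log2, vertical axis) for the 529 probe sets called higher (left) and the 252 called lower (right) in the light controls, in 7 comparisons named by line number and condition. Boxes span the quartiles with the median, whiskers the 5th to 95th percentile. The first box of each panel holds the values that chose the probe sets. Medians of the 529 are 0.73 in the light controls, 0.58, 0.29 and 0.42 in steady and between -0.11 and 0.08 in the others.

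In the nitrogen experiment most of these probe sets were not called. Of the 529, more were called lower than higher on N-absent medium, while on N-rich medium the counts in both directions were close. For the 252 lower calls were the more frequent on both. On N-absent medium 11 of the 529 (2.08%) were called higher in SALK_070989, against 4.19% of all, and 52 were called lower, against 3.6% of all. The median was -0.11. Of the 252 lower probe sets 32 (12.7%) were called lower there, against 3.6% of all, and 15 were called higher, against 4.19% of all. EXO differed by -1.02 (adjusted p = 0.034), BZIP61 by -0.91 and AT2G47440, of a co-chaperone family, by -0.62 (adjusted p = 0.036), each opposite to the light controls. AT4G28703 (1.43) and AT5G28630 (1.39) were called higher in both. On N-rich medium 18 of the 529 (3.4%) were called higher, against 1.39% of all, and 13 were called lower, against 1.09% of all. Of the 252, 11 (4.37%) were called lower on N-rich medium, against 1.09% of all, and 1 was called higher.

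The light-control calls were also set beside a darkness comparison in Col-0 that shares none of their arrays, Col-0 dark N-absent against Col-0 N-absent. Darkness and experiment cannot be told apart there, and 64.7% of the 12485 differed. Of the 529 higher probe sets 341 (64.5%) were higher in Col-0 dark N-absent, against 36.2% of all, and 39 were lower. Of the 252 lower ones 155 (61.5%) were lower in Col-0 dark N-absent, against 28.4% of all, and 33 were higher. IVD was higher by 1.6, MCCA by 2.28, GH3.5 by 3.95 and WRKY22 by 4.17. AT3G44450 fell by 5.99, TBL26 by 6.47 and HYH by 2.93. AT3G62550 (0.58) was not called, and BZIP34 was near the lowest value in both groups. QQS was higher by 1.48 in Col-0 dark N-absent while it fell in SALK_070989 light controls.

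**Figure D5:**
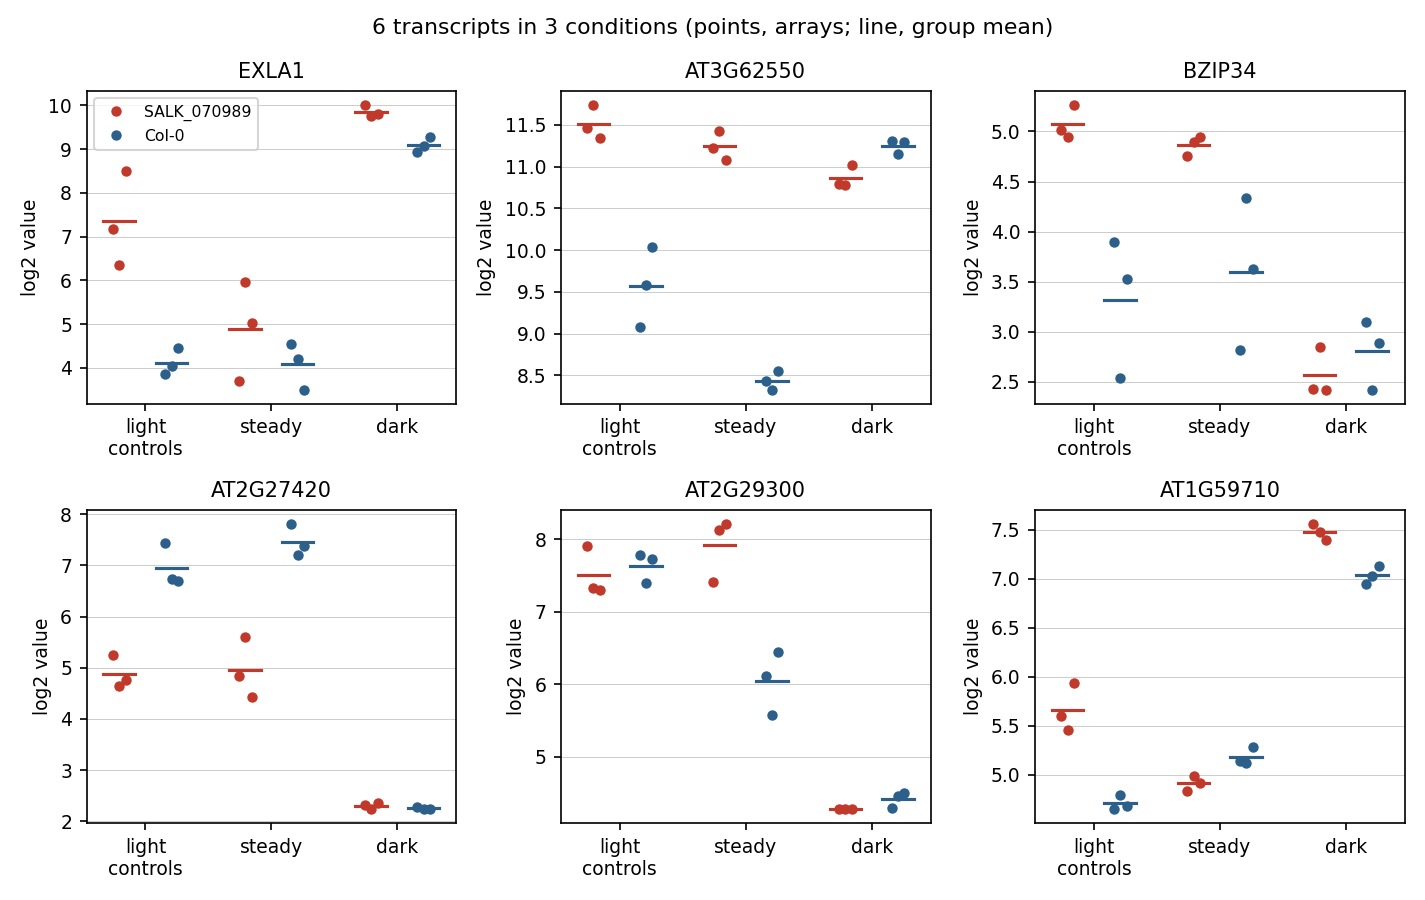
Log2 values of 6 transcripts in the light controls, steady and the dark, SALK_070989 (red) left of Col-0 (blue), with points for arrays and lines for group means. EXLA1 is separate between genotypes in the light controls and in the dark, and is high in all dark arrays. AT2G29300 differs between genotypes in steady alone, and AT1G59710 is above Col-0 in the light controls and below it in steady.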

How the data were processed

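RNA from shoots was hybridised to 1 Affymetrix 3′ array per sample. The values the authors deposited come from GCRMA, as the submitters' processing notes name it, which corrects background, normalizes arrays and summarises each probe set. Their log2 scale was inferred from the range of the deposited values, 2.23 to 14.63. A shift shared by most transcripts would be removed by such normalization. Probe sets without signal end near a common bottom value (26.4% of the table lies within 0.01 of it), which makes differences against them lower bounds. Precision is limited by the number of arrays. Neither genome build nor GCRMA version was given in the sources.

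Probe sets with a group mean above 4 in any of the 16 groups were kept (14288), and a model of group means was fitted to all 46 arrays with limma 3.58.1 in R 4.3.3 (30 residual and 4.97 prior degrees of freedom). For each contrast, p-values of all kept probe sets were adjusted together (Benjamini-Hochberg), and 0.05 was the threshold. The platform annotation gives 1 gene for 6635 of the 12485 probe sets. The comparison, the 32 gene lists and the tests were chosen with earlier results of these data known. The comparisons with SALK_016954 and SALK_136009 and their alternatives were chosen once the data were in view.

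Named genes are WRKY1, the 15 highest and 15 lowest called differences with 1 gene name and no overlap between groups, up to 4 called genes of each list, and 5 in each direction for the light minus steady test. A further 3 genes are marked in the text. Of 518 list entries, 8 whose locus and symbol disagreed were left out. Lists of gibberellin and brassinosteroid, nitrate uptake, nitrogen regulators, jasmonate, touch and calcium, and markers of seed, flower and meristem held no tested gene. Marker genes FAMA of guard cells (-0.10) and PYK10 of roots (0.10) and the reference genes GAPC2 and PEX4 were not called. On simulated arrays of the light comparison with 14288 probe sets, 28.4%, 97.0% and 100% of changes of 0.5, 1 and 2 log2 units were recovered, with 11 false calls. Only 200 probe sets were changed there, and noise was drawn independently from the fitted spread. The figures hold for that setting, which differs from the data. Alternatives were no filter, a filter at 6, quantile normalization, eBayes with trend and robust settings, a replicate block, fits to fewer groups, adjustment over fewer probe sets and leaving out each array. Figures and tables used python 3.11.15, numpy 2.4.6, pandas 2.3.3, scipy 1.17.1 and matplotlib 3.10.9. Sequences and genome positions were not used here.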

Additional observations from a re-analysis of the deposited data

Results flagged for a closer look

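The genotype difference differed between the light controls and steady for 61 probe sets, by a test of the difference itself. Positive differences among the named genes were those of AT5G28630 (1.79), AT1G52200 (1.73), AT3G44450 (1.46), AT1G59710 (1.23) and AT3G43670 (1.18). Negative ones were those of AT2G29300 (-1.99), AT3G62950 (-1.76), AT3G07350 (-1.52), AT2G20670 (-1.51) and AT3G15450 (-1.47). AT3G62950, a CC-type glutaredoxin gene, had 7.28, 7.05 and 6.75 in SALK_070989 against 5.49, 6.32 and 5.92 in Col-0 in the light controls, and 6.11, 6.30 and 6.07 in SALK_070989 against 3.44, 2.97 and 3.44 in Col-0 in steady. Under the alternatives tried, the call was lost in 13 for AT5G28630, 12 each for AT3G43670 and AT3G07350, 11 for AT1G52200, 10 for AT3G15450, 8 each for AT3G44450 and AT3G62950, 3 for AT2G20670 and 1 each for AT1G59710 and AT2G29300.

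The genotype difference differed between the light controls and the dark for 282 probe sets. Among named genes higher in SALK_070989 light controls, the light minus dark difference was 2.47 for EXLA1, 2.33 for AT3G62550, 2.04 for AT3G19680, 2.00 for BZIP34, 1.81 for AT2G30930, 1.75 for AT4G28703, 1.67 for AT1G02660, 1.64 for AT5G25240, 1.58 for AT1G50040, 1.54 for EXLA2, 1.5 for AT1G72060 and 1.40 for AT2G47440. It was 1.61 for AT3G62950, 1.22 for IVD, 1.2 for AT1G10020, 1.05 for THE1, 0.92 for AKINBETA1, 0.91 for PORB and 0.89 for MCCA. Among those lower it was -2.13 for AT2G27420, -1.5 for AT2G15020, -1.46 for AT5G17780, -1.40 for AT1G48100, -1.36 for TRY, -1.35 for 1 probe set of AT5G54130, -1.19 for AT3G44450, -1.12 for WRKY1 and -0.84 for UGT74B1. The other probe set of AT5G54130, at -1.06 (adjusted p = 0.095), did not pass. AT2G27420, AT1G48100 and AT3G44450 were near the lowest value of the table in both genotypes in the dark, and WRKY1 in SALK_070989 in both arms, so that the lowest value bounds these 4 differences and they measure no genotype difference in the dark for the first 3. BZIP34 (means of 2.56 in SALK_070989 and 2.80 in Col-0) and AT5G17780 (2.79 and 2.66) were also little above the lowest value in the dark. AT1G50040 was near the lowest value in the Col-0 light controls, which makes its 1.58 a lower bound. The light control arrays enter both the choice of the genes listed here and the tests. WRKY1 in the dark was 2.23, 2.23 and 2.66 in SALK_070989 against 6.69, 6.68 and 6.57 in Col-0, lower in Col-0 than in its light controls.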

How the results depend on the processing

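Fitted to its own groups alone the light comparison gave 594 calls, and up to 971 in a fit to the 4 groups of the light experiment, against 781, and 427 to 656 with 1 array left out. WRKY1 stayed between -5.46 and -5.35 with 1 array left out. Steady gave 1698 calls, 613 in such a fit and 1144 to 1739 with 1 array left out. Light minus steady gave 61, 40 with no filter, 1 in a fit to only the groups compared (1044 at an unadjusted p under 0.05), and 24 to 78 with 1 array left out. Light minus dark gave 282, and 451 when fitted to the groups compared alone, with 130 to 254 after leaving out 1 array. Col-0 light controls against Col-0 steady gave 606, 182 and 273 to 467 in the same order. SALK_070989 light controls against SALK_070989 steady gave 421, with limma 0 in a fit to only the groups compared (1860 at an unadjusted p under 0.05) and 231 to 584. Calls shared with steady gave 493, 185 and 273 to 508, those shared with SALK_016954 147, 4 and 70 to 164, and those shared with SALK_136009 324, 86 and 179 to 311. Col-0 dark N-absent against Col-0 N-absent gave 8073, and 6956 to 7847 with 1 array left out. Fits to fewer groups leave fewer arrays to estimate the spread.

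Same-numbered replicates correlated at 0.0006, 0.081 and 0.074 in their deviations from the light group means, and different-numbered ones at -0.104 to 0.044. With 3 arrays per group such values cannot tell whether same-numbered arrays shared a culture or batch. With the replicate block the light comparison gave 795 calls, 530 higher and 265 lower. In a fit to only the groups compared, 17 named genes of the light comparison lost their call, among them AT3G19680 (adjusted p = 0.053), AT1G50040 (0.068), BZIP34 (0.056), TRY (0.059), IVD (0.054) and WRKY22 (0.06). No named gene called in the light comparison or in light minus steady changed direction under any of these alternatives. The balance of higher and lower calls did turn in steady, from 771 and 927 to 884 and 766 after a further quantile normalization. In light minus steady it went from 18 and 43 to 20 and 19 without SALK_070989 light replicate 3. Probe sets at the lowest value of the table limit what can be measured below it.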
